A study of Mus musculus with 6 samples.

Results

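The acetylcholine receptor and the proteins that anchor it at the neuromuscular junction were followed as a group of 10 genes in hind leg muscle of mice with and without treadmill training. The members were the rows of the deposited table that carry the symbols Chrna1, Chrnb1, Chrnd, Chrne, Chrng, Musk, Rapsn, Dok7, Colq and Ache, and all 10 were found among its 16759 genes. Both groups were male C57BL/6J mice that were 8 weeks old at the start, and the animals were perfused with PBS before the muscle was taken. The 3 control (Con) mice were not trained, and the 3 exercise (EX) mice ran on a treadmill for 60 min per day on 5 days per week for 6 weeks, covering 22 km each. EX muscle was taken 24 h after the last session, and the sources used here do not give the interval for Con mice. RNA was sequenced with 1 library per mouse from a small piece of muscle, and which muscle of the hind leg that piece came from is not given. Levels are given either as CPM, the counts relative to TMM-scaled library size, or as the authors' FPKM. FPKM is per transcript length and is not on the TMM scale.

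At the neuromuscular junction, the motor nerve ending releases acetylcholine onto the nicotinic receptor, a cation channel packed at the crests of the muscle membrane. The receptor is a ring of alpha, beta and delta subunits joined by a gamma subunit in fetal and denervated fibres and by an epsilon subunit at the mature endplate. Agrin from the nerve acts through LRP4 on the kinase MuSK, and Dok-7 and rapsyn carry that signal to receptor clustering, while acetylcholinesterase held by its collagen tail ColQ ends transmission. These transcripts come largely from the few nuclei beneath each synapse, so they form a small part of the RNA of a muscle.

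The libraries held between 13845362 and 16240431 counts on genes, and where a gene had none, the limit of 3 counts was between 0.188 and 0.214 CPM, for counting error only. The tissue label fitted its markers, since the 10 muscle fibre markers summed to between 170000 and 177000 CPM in Con and between 185000 and 194000 CPM in EX. These sums did not overlap. Of the 10, 5 were higher and 1 lower in EX both in edgeR's quasi-likelihood test and with DESeq2, against none higher and 1 lower with limma on log2(FPKM + 0.1). Acta1, Mylpf and Pvalb, for skeletal actin, a fast myosin light chain and the calcium buffer parvalbumin, had log2 fold changes of 0.22, 0.30 and 0.35. The lower call was Myh1, a fast myosin heavy chain, at -0.09 (edgeR's quasi-likelihood test, adjusted p = 0.047). Ckm, Tnnt3, Myh4 and Des did not pass the threshold in that test. Other cell types and fibre types also moved with the groups. The 8 slow fibre markers summed to between 101 and 106 CPM in Con and between 351 and 377 CPM in EX, and 7 of them were called higher in EX. Atp2a2 and Myl3 carried most of the Con sum, while Myh7, the slow myosin heavy chain, was at 1.0 CPM in Con and 102 CPM in EX, and Tnnt1, slow troponin T, at 1.49 and 28.2 CPM. The 8 macrophage markers summed to between 38.6 and 43.2 CPM in Con and between 66.4 and 71.7 CPM in EX, and the 6 endothelial markers to between 564 and 576 CPM and between 490 and 514 CPM. The 8 fibroblast and tendon markers summed to between 953 and 977 CPM in Con and between 1310 and 1320 CPM in EX. For the 6 fat cell markers the sum was carried by Fabp4 and overlapped, at 220 to 240 CPM in Con and 225 to 230 CPM in EX, although 5 of them were higher in EX past an adjusted p-value of 0.05 in edgeR's quasi-likelihood test. The 6 satellite cell markers summed to between 57.1 and 60.8 CPM in a library, and the groups overlapped. The part of these differences in the results on the junction genes was not tested.

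Of the 10 junction genes, Musk, Chrna1 and Chrng were higher and Chrnd was lower in EX than in Con muscle, with an adjusted p-value under 0.05 over all genes in edgeR's quasi-likelihood test. The other 6, which were Chrnb1, Chrne, Rapsn, Dok7, Colq and Ache, did not pass this threshold. The members therefore had 4 calls in 10, where 12.0% of the 16716 genes with a count were called, 6.08% as higher and 5.96% as lower. All 9 members other than Chrng had a mean of at least 1 FPKM, and 3 of these 9 were called, against 16.8% of the 10883 genes at that level. The CPM ranges of the groups did not overlap for 6 members, against 26.7% of all genes tested. In 4 of these members EX was higher, against 13.4% of all genes, and in 2 it was lower, against 13.3%. Among members with at least 1 FPKM, 5 of 9 did not overlap, against 33.5% of the genes at that level. The median log2 fold change of the members was 0.05, and that of all genes tested was 0.00. The call of Chrna1 was lost in 12 of the 17 alternative fits, and that of Chrnd in 1 of them. In bulk muscle, a change in the number of synaptic nuclei and a change in the RNA from each of them cannot be told apart.

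**Figure D1:**
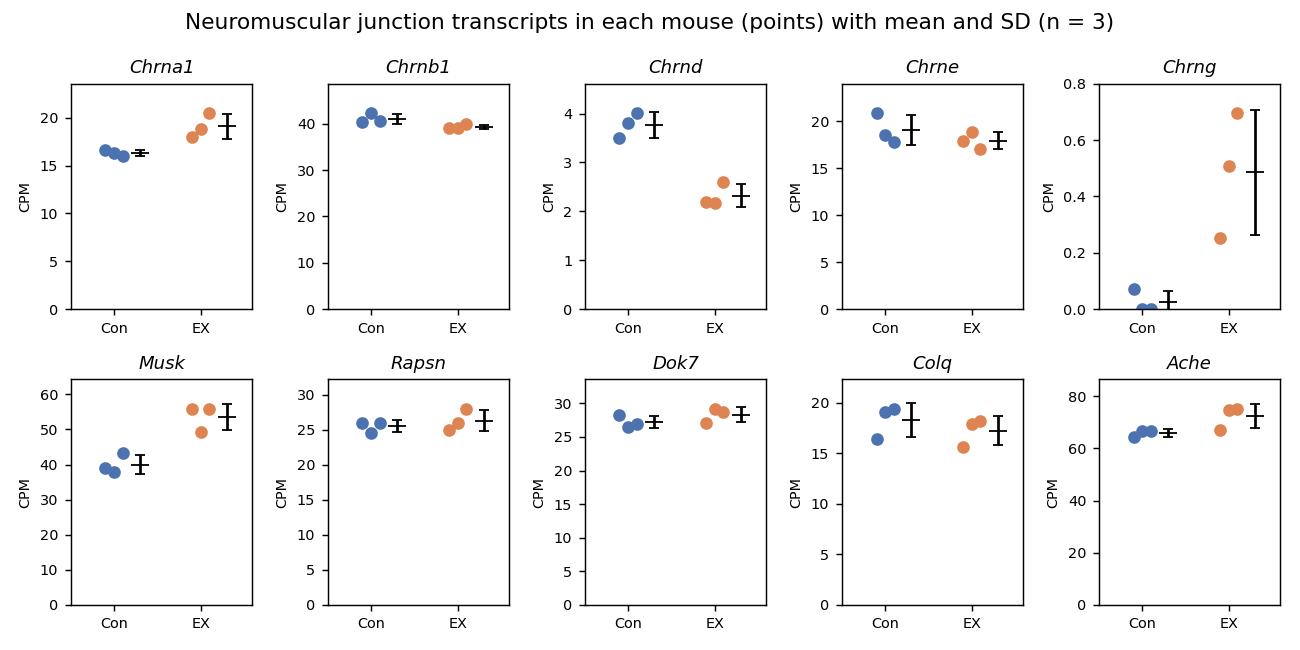
Level of each of the 10 junction transcripts in CPM (y axis, starting at 0 and scaled separately for each gene) in the 3 Con and 3 EX mice, with the mean and SD beside the points. Musk, Chrna1, Chrng and Ache lie higher in all EX mice, Chrnd and Chrnb1 lie lower, and the groups overlap for the other 4 genes.

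Per length of transcript, Ache was the most abundant member in both groups, and Chrng the least. In Con muscle, the mean levels ran from Ache at 34.2 ± 0.998 FPKM (SD, n = 3) through Chrnb1 at 23.0, Rapsn at 20.0, Chrne at 15.7, Dok7 at 10.9, Colq at 7.53, Musk at 6.19 and Chrna1 at 4.16 to Chrnd at 1.46 and Chrng at 0.0167 FPKM. The ranges of neighbours in this order did not overlap in Con. In EX muscle the order was the same except that Musk, at 8.06 ± 0.386 FPKM, stood above Colq, at 6.90 ± 0.571 FPKM. Chrnb1 and Rapsn overlapped in EX, at 20.8 to 21.4 and 19.0 to 21.0 FPKM, and the other neighbours did not.

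Chrna1 encodes the alpha subunit, which carries the acetylcholine binding site and is part of both the fetal and the adult receptor. Its counts were 233, 257 and 255 in Con replicates 1 to 3 and 286, 296 and 324 in EX replicates 1 to 3. Scaled to CPM, these were 16.6, 16.3 and 16.0 in Con and 18.0, 18.8 and 20.5 in EX, so that each EX mouse lay above each Con mouse. The log2 fold change was 0.23 (standard error 0.08, 95% interval 0.07 to 0.39, edgeR's quasi-likelihood test, adjusted p = 0.045), a 1.17-fold higher level. This call was at the edge of the threshold. It was lost when any of the 6 libraries was left out, with an adjusted p between 0.056 and 0.24 in edgeR, and its adjusted p was 0.29 with DESeq2 and 0.22 with limma on log2(FPKM + 0.1).

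Chrnd encodes the delta subunit, which is also shared by both receptor forms. Con muscle gave 49, 60 and 64 counts of it and EX muscle 35, 34 and 41. The CPM values were 3.49, 3.80 and 4.01 in Con and 2.20, 2.16 and 2.59 in EX, with a clear gap between the groups. The level fell by 0.70 on the log2 scale (standard error 0.17, 95% interval -1.05 to -0.35, edgeR's quasi-likelihood test, adjusted p = 0.0035). It remained past the threshold when any of the 6 libraries was left out, but its adjusted p was 0.089 with DESeq2.

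Chrng encodes the gamma subunit of the fetal receptor and was close to the detection limit in untrained muscle. A count of 1 was found in Con replicate 1 and none in Con replicates 2 and 3, whereas the EX libraries held 4, 8 and 11 counts. The EX levels of 0.251, 0.508 and 0.696 CPM all lay above the Con levels of 0.0712, 0 and 0 CPM. Summed over the 3 mice of a group, 1 count stood against 23 counts, a ratio of 22.2 after scaling, with an exact 95% interval of 3.60 to 914 that covers counting error only. The difference passed the threshold in edgeR's quasi-likelihood test (adjusted p = 0.0017) and with DESeq2 (adjusted p = 0.032). Leaving out each library in turn gave an adjusted p between 0.0094 and 0.049 in edgeR. All of the Con value rests on that 1 read of Con replicate 1, and without this library the Con counts are all 0.

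Chrne and Chrnb1 encode the adult epsilon subunit and the beta subunit, and neither passed the threshold. Chrne had 294, 293 and 285 counts in Con and 285, 298 and 271 counts in EX. The CPM ranges overlapped, at 17.8 to 20.9 in Con and 17.1 to 18.9 in EX, and the log2 fold change was -0.08 (95% interval -0.24 to 0.07, edgeR's quasi-likelihood test, adjusted p = 0.58). Chrnb1, the most abundant subunit per length, had 40.3, 42.3 and 40.5 CPM in Con and 39.1, 39.0 and 39.9 CPM in EX. The groups of Chrnb1 did not overlap, but the log2 fold change was small, at -0.06 (95% interval -0.17 to 0.05, edgeR's quasi-likelihood test, adjusted p = 0.57).

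The fetal and adult subunits were set against each other within each library, which removes the library scaling. Of the counts on Chrng and Chrne together, Chrng took 0.339% (exact 95% interval 0.00858 to 1.87) in Con replicate 1. In Con replicates 2 and 3 it took none of 293 and 285 counts, which allows a share of up to 1.01% and 1.04% by the limit of 3 counts and up to 1.25% and 1.29% by the exact 95% interval. In EX replicates 1 to 3 the share of Chrng was 1.38% (0.378 to 3.51), 2.61% (1.14 to 5.09) and 3.90% (1.96 to 6.87). The 3 EX shares were thus above the 3 Con shares, although the intervals of EX replicates 1 and 2 overlapped that of each Con library. Only the interval of EX replicate 3 lay above all Con intervals. Per length, Chrng made up 0.0977 ± 0.169% (SD, n = 3) of the summed FPKM of both genes in Con and 2.11 ± 0.991% in EX (two-sided exact permutation test, p = 0.1, below which 3 against 3 mice cannot go). The log2 ratio of Chrng to Chrne, with 0.1 FPKM added to both because Chrng is listed at 0 in 2 Con libraries, was -7.10 ± 0.236 in Con and -5.20 ± 0.553 in EX, a difference of 1.90 (two-sided exact permutation test, p = 0.1). Even in EX replicate 3, where Chrng was highest, Chrne stood at 13.4 FPKM and Chrng at 0.43 FPKM.

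Together, the 5 subunits summed to 44.3 ± 0.874 FPKM (SD, n = 3) in Con and 41.1 ± 0.312 FPKM in EX, while on the CPM scale their sums overlapped, at 78.3 to 81.4 in Con and 77.4 to 80.8 in EX. The 2 scales differ, since the median log2 fold change of genes over 1 FPKM was -0.056 on log2(FPKM + 0.1) and 0.0 in edgeR. Chrnb1 took 51.9 ± 1.89% of the summed FPKM in Con and 51.4 ± 0.937% in EX, and Chrne took 35.4 ± 2.12% and 34.4 ± 1.74%. Their ranges overlapped. The share of Chrna1 was 9.36%, 9.33% and 9.47% in Con and 10.9%, 11.0% and 12.2% in EX. The share of Chrnd was 2.98%, 3.30% and 3.60% in Con and 2.01%, 1.91% and 2.32% in EX. The shares of Chrna1, Chrnd and Chrng did not overlap between the groups (two-sided exact permutation test, p = 0.1 for each and 0.167 adjusted over the 5 shares). The ratio of Chrna1 to Chrnd within a library was 3.14, 2.83 and 2.63 in Con and 5.43, 5.77 and 5.25 in EX on the FPKM scale.

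**Figure D2:**
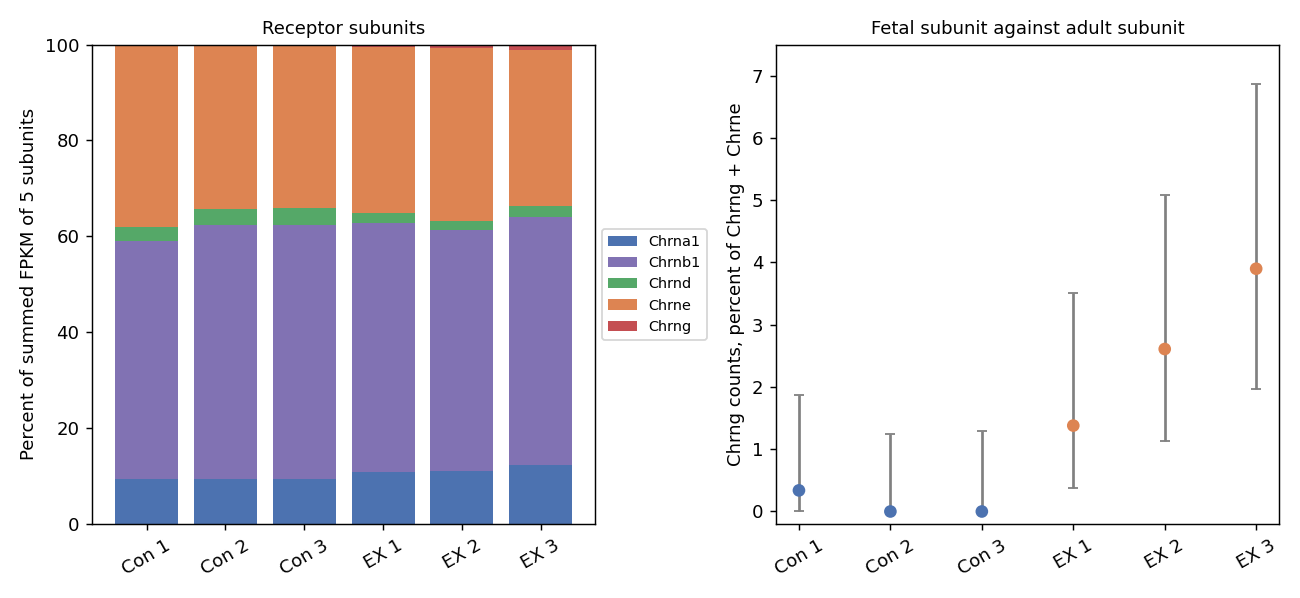
Left, percent of the summed FPKM of the 5 receptor subunits taken by each (stacked, y axis from 0 to 100) in each library, with Chrnb1 and Chrne as the largest parts of every bar. Right, counts of the fetal subunit Chrng as a percent of Chrng and Chrne counts in each Con (blue) and EX (orange) library with exact 95% intervals, which cover counting error only; the 3 EX points lie between 1.38% and 3.90% and the 3 Con points between 0% and 0.339%.

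Among the genes of receptor clustering, Musk differed between the groups in these libraries by more than the spread between mice, and for Rapsn and Dok7 the groups overlapped. Musk encodes the receptor tyrosine kinase that starts clustering beneath the nerve ending. Its counts were 547, 598 and 690 in Con and 886, 778 and 884 in EX. As CPM the values were 38.9, 37.9 and 43.2 in Con and 55.7, 49.4 and 55.9 in EX, so the lowest EX mouse lay above the highest Con mouse. The log2 fold change was 0.42 (standard error 0.06, 95% interval 0.30 to 0.54, edgeR's quasi-likelihood test, adjusted p = 3.9e-07), a 1.34-fold higher level, and it was past the threshold in each of the 17 alternative fits, with values from 0.33 to 0.48.

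Rapsn encodes rapsyn, the scaffold that binds the cytoplasmic side of the receptor. It had 26.0, 24.6 and 26.0 CPM in Con and 25.0, 25.9 and 28.0 CPM in EX, with overlapping groups and a log2 fold change of 0.04 (95% interval -0.09 to 0.18, edgeR's quasi-likelihood test, adjusted p = 0.74). Dok7 encodes the adaptor that activates MuSK from inside the cell. It had 28.3, 26.5 and 26.9 CPM in Con and 27.1, 29.2 and 28.7 CPM in EX, and its log2 fold change was 0.06 (95% interval -0.07 to 0.19, adjusted p = 0.60). The sign of Rapsn and of Dok7 was the opposite in limma on log2(TPM + 0.1), at -0.05 and -0.02. Within a library, the ratio of Musk to Rapsn was 0.290, 0.314 and 0.323 in Con and 0.443, 0.396 and 0.385 in EX on the FPKM scale, and the ratio of Musk to Dok7 was 0.524, 0.570 and 0.612 in Con and 0.795, 0.683 and 0.724 in EX. Neither ratio overlapped between the groups (two-sided exact permutation test, p = 0.1, also when adjusted over the 5 pairs of members compared, a choice made with their values known).

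The enzyme side of the synapse showed small differences. Ache encodes acetylcholinesterase and had 902, 1053 and 1067 counts in Con and 1070, 1179 and 1189 counts in EX. The CPM values were 64.2, 66.7 and 66.8 in Con and 67.2, 74.8 and 75.2 in EX, where EX replicate 1 lay just above the Con mice. The log2 fold change was 0.13 (standard error 0.05, 95% interval 0.03 to 0.24), and the adjusted p of 0.074 in edgeR's quasi-likelihood test missed the threshold. Without EX replicate 1 the log2 fold change of Ache was 0.19 and its adjusted p was 0.029 in edgeR. Colq encodes the collagen tail that ties the enzyme to the synaptic basal lamina. It had 16.4, 19.1 and 19.4 CPM in Con and 15.6, 17.9 and 18.2 CPM in EX, with a log2 fold change of -0.09 (95% interval -0.26 to 0.07, edgeR's quasi-likelihood test, adjusted p = 0.55). The FPKM of Ache was 4.83, 4.46 and 4.39 times that of Colq in the Con libraries and 5.43, 5.26 and 5.08 times in the EX libraries. These ratios did not overlap, with a difference of 0.20 on the log2 scale (two-sided exact permutation test, p = 0.1).

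**Figure D3:**
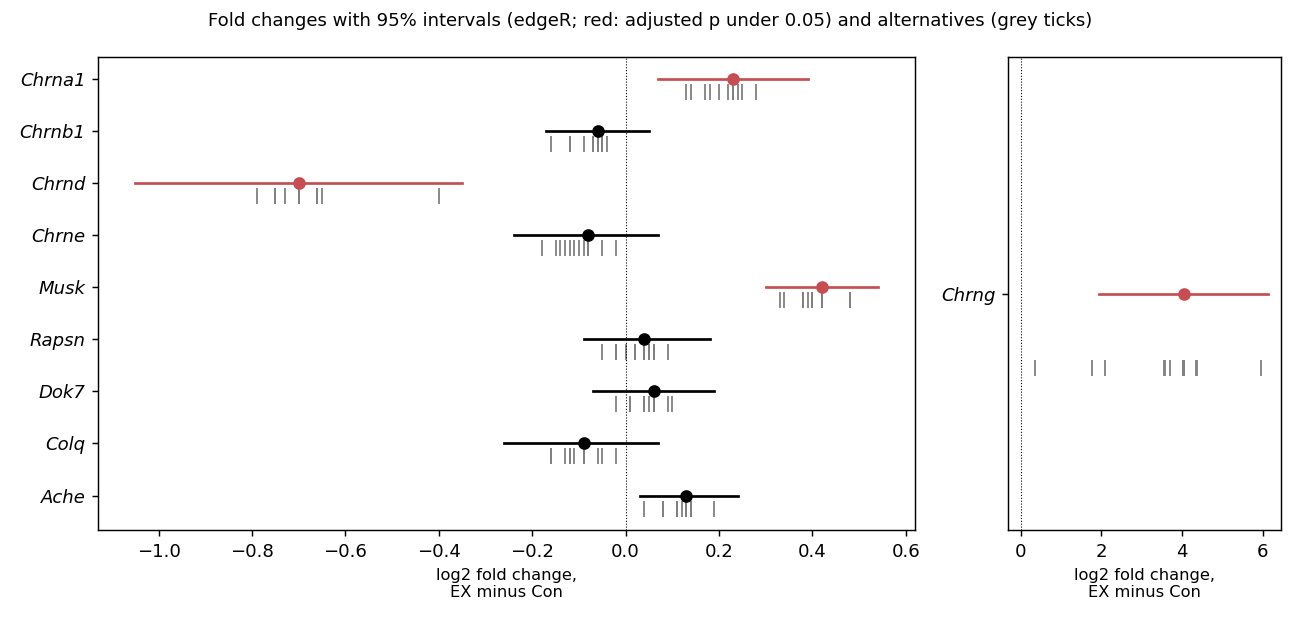
Log2 fold change of each junction gene, EX minus Con (x axis, with its own scale for Chrng), with 95% intervals from edgeR as lines and the values under the alternative fits as grey ticks. The members past an adjusted p of 0.05 are in red, and the interval of each of the 5 members Chrnb1, Chrne, Rapsn, Dok7 and Colq includes 0.

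The promoters of Chrna1, Chrng and Musk, the members that were higher in EX, are shown beside that of Chrne, the adult subunit, because the letters of 2 known muscle motifs differ between them. The E-box, CANNTG, is bound by myogenic factors such as myogenin and MyoD, and the core of the N-box, CCGGAA, is bound by the factor GABP and is known from genes expressed beneath the synapse. Both were searched on both strands in the 250 bases before the start site, from RefSeq's promoters of the build GRCm38.p6, where 7 of the 10 members had an entry. Capitals mark the motifs, and none of the matches in the 4 windows overlap. The windows are chr2:73580339-73580588 on the minus strand for Chrna1, chr1:87205561-87205810 on the plus strand for Chrng, chr4:58285712-58285961 on the plus strand for Musk and chr11:70619195-70619444 on the minus strand for Chrne.
Chrna1: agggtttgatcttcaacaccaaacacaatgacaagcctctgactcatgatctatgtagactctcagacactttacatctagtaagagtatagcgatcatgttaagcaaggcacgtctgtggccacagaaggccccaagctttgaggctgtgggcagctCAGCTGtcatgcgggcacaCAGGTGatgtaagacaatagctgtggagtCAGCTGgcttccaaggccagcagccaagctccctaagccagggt
Chrng: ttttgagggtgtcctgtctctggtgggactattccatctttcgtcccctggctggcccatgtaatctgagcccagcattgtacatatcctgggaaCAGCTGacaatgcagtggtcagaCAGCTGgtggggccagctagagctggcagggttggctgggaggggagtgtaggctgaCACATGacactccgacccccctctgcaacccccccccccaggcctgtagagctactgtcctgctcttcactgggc
Musk: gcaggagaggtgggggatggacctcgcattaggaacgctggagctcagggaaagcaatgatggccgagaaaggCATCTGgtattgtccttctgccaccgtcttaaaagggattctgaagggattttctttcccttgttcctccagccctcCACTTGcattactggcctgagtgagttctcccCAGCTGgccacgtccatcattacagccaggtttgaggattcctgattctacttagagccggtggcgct
Chrne: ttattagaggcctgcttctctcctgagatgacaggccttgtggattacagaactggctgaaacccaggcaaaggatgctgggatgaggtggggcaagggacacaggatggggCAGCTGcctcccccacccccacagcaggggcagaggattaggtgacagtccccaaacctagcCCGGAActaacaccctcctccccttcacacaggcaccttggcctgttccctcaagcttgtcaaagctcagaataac
The windows of Chrna1, Chrng and Musk held 3 E-boxes each and no N-box core, and that of Chrne held 1 E-box and 1 N-box core. In Chrng the E-boxes began 155, 132 and 75 bases before the start site, and in Chrna1 92, 73 and 44 bases before it. The N-box core of Chrne began 76 bases before the start site. Chrnb1, which was not past the threshold, also held 3 E-boxes, and Ache held 1. Of the 27025 promoters in that table, 66.0% held an E-box in the same 250 bases, 12.1% held 3 or more, and 12.2% held the N-box core. A match of letters is a description and not a shown binding site.

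Some genes that encode factors for these motifs were part of the gene lists compared beside the members. Myog, for myogenin, rose from 4.29 to 8.53 CPM, or by 0.99 on the log2 scale (edgeR's quasi-likelihood test, adjusted p = 1.1e-07), and Myod1 rose from 42.1 to 57.1 CPM, or by 0.44 (adjusted p = 2.4e-08). Gabpa, for the DNA-binding subunit of GABP, had 43.8 CPM in Con and 39.4 CPM in EX, with a difference of -0.15 on that scale (adjusted p = 0.11). Myf5, for another myogenic factor, had a log2 fold change of -0.02 in the same test (adjusted p = 0.98). Gabpb1, for the other subunit of GABP, had 0.06 (adjusted p = 0.75). All of these genes were named after their values were seen.

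Chrna1, Chrnd, Chrng and Musk are known to rise in denervated muscle, and a list of 15 other genes of denervated or regenerating fibres, which included Myog and Myod1, was counted beside them. Of these 15, 7 were higher and 2 lower in EX past the threshold of edgeR's quasi-likelihood test, with a median log2 fold change of 0.27. Among the genes past the threshold, the largest increases were in Mymk, a membrane protein of myoblast fusion, and in the developmental myosin heavy chains Myh3 and Myh8. Mymk had 1, 0 and 1 counts in Con and 24, 18 and 23 counts in EX, a ratio of 31.3 over the summed counts (exact 95% interval 8.33 to 264, counting error only). Myh3 rose from 0.983 to 7.67 CPM, and Myh8 from 1.69 to 7.22 CPM, although the counts of Myh8 were not whole in every library. The decreases were in Dach2, a corepressor upstream of myogenin, at -1.04 on the log2 scale (adjusted p = 8.8e-05), and in the deacetylase Hdac9, at -0.35 (adjusted p = 0.013). Although they stand on this list, Dach2 and Hdac9 are known to fall after denervation. Of the 6 genes of the list that did not pass the threshold, 2 are named here after their values were seen. Ncam1, a cell adhesion molecule, had a log2 fold change of 0.21 (adjusted p = 0.21), and Runx1, a transcription factor, had 0.24 (adjusted p = 0.51).

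The list of agrin, LRP4, neuregulin and other postsynaptic signalling held 19 genes. In EX, 2 of them passed the threshold as higher and 2 as lower, with a median log2 fold change of -0.05, and DESeq2 and limma on log2(FPKM + 0.1) called 1 in each direction. Pak1, a kinase downstream of MuSK, rose from 24.3 to 34.7 CPM, or by 0.52 on the log2 scale (edgeR's quasi-likelihood test, adjusted p = 4.8e-08), and Dnaja3, a MuSK-binding cochaperone, rose by 0.12 (adjusted p = 0.042). Agrn, for agrin, fell from 44.4 to 36.9 CPM, by 0.27 on the log2 scale (adjusted p = 6.1e-04). Erbb3, a neuregulin receptor of muscle and Schwann cells, fell from 8.43 to 5.96 CPM, by 0.50 (adjusted p = 0.0031). Lrp4, the agrin receptor beside MuSK, had a log2 fold change of 0.06 (adjusted p = 0.77) and was named after its value was seen.

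The 18 genes of the postsynaptic scaffold and the synaptic basal lamina included 5 that were lower and none that were higher in EX past the threshold of edgeR's quasi-likelihood test, with a median log2 fold change of -0.09. At an unadjusted p under 0.05, 2 of them were higher and 6 lower in edgeR, and DESeq2 and limma on log2(FPKM + 0.1) also called none higher after adjustment. Utrn, for utrophin, the dystrophin relative that is concentrated at the junction, fell from 50.2 to 37.4 CPM, by 0.42 on the log2 scale (adjusted p = 9.7e-08). Lama5, a laminin chain of the synaptic and vascular basement membrane, fell by 0.33 (adjusted p = 4.5e-07), and Syne1, for nesprin-1, which anchors nuclei beneath the synapse, fell by 0.26 (adjusted p = 5.8e-05). Agrn, Utrn and Lama5 are also expressed by blood vessels, and the summed endothelial markers given above were also lower in EX, with 3 of the 6 called lower and Cldn5, a tight junction protein, called higher by 0.26 on the log2 scale (adjusted p = 0.018). Their part in these decreases was not tested.

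Of 12 neuronal nicotinic and muscarinic receptor genes tested, none passed the threshold in edgeR, DESeq2 or limma on log2(FPKM + 0.1), and 1 was higher at an unadjusted p under 0.05 in edgeR. Together they summed to between 1.42 and 2.73 CPM in a library. Prima1, the membrane anchor of acetylcholinesterase, rose from 9.90 to 12.9 CPM, or by 0.38 on the log2 scale (edgeR's quasi-likelihood test, adjusted p = 0.0050). Bche, for butyrylcholinesterase, fell from 12.9 to 10.5 CPM, by 0.29 on the log2 scale (adjusted p = 0.046). Neither Prima1 nor Bche was called after adjustment by DESeq2 or by limma on log2(FPKM + 0.1).

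**Figure D4:**
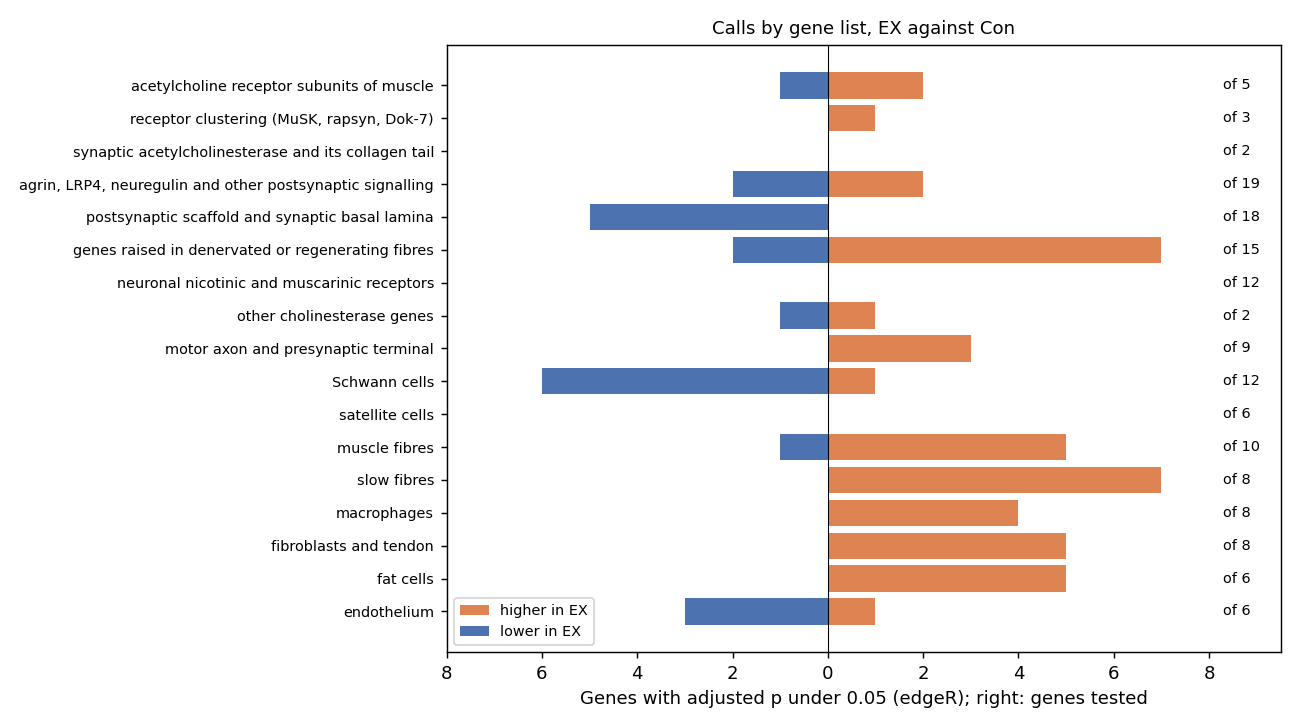
Number of genes with an adjusted p under 0.05 in edgeR in each gene list (x axis; right of 0, higher in EX; left of 0, lower in EX), with the number tested at the right. The junction members are the top 3 rows, with 2 higher and 1 lower of the 5 receptor subunits and 1 higher of the 3 clustering genes.

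Nerve and Schwann cell transcripts were read as markers of the other side of the synapse. The axon genes Syt2, Nefl, Nefm and Nefh had between 0 and 2 counts in every library, and Prph between 0 and 6. Stmn2, a neuronal stathmin, had between 22 and 47 counts and a log2 fold change of 0.17 (edgeR's quasi-likelihood test, adjusted p = 0.67). Snap25 and Syt1, synaptic vesicle release proteins, had no count in Con. The EX libraries held 8, 4 and 12 counts of Snap25 and 8, 7 and 7 of Syt1, which was at least 2.56-fold and 2.35-fold higher than the limit of 3 counts per Con library. Uchl1, a neuronal ubiquitin hydrolase, rose from 1.82 to 2.99 CPM (log2 fold change 0.72, edgeR's quasi-likelihood test, adjusted p = 0.0085). The 9 axon genes tested summed to between 3.38 and 5.62 CPM in Con and between 6.60 and 7.23 CPM in EX, without overlap, and Snap25, Syt1 and Uchl1 were the 3 past the threshold in edgeR, against 2 with DESeq2. The 12 Schwann cell markers summed to between 118 and 131 CPM in Con and between 90.0 and 93.1 CPM in EX, with 6 lower and 1 higher in edgeR and 3 lower and none higher with DESeq2. Sox10, which defines the Schwann lineage, fell by 0.86 on the log2 scale (adjusted p = 0.0048), Prx, a myelin protein, by 0.74 (adjusted p = 5.2e-07) and Cdh19, a cadherin, by 0.65 (adjusted p = 0.045). Gfap, known from non-myelinating Schwann cells, had 2 counts in Con and 23 in EX over the 3 mice of each group, a ratio of 11.1 (exact 95% interval 2.74 to 97.0, counting error only). The part of nerve and Schwann cell RNA in the values of Chrnd, Musk, Agrn and Erbb3 was not tested.

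The genes whose log2 CPM followed that of a subunit most closely over the 6 libraries were named as a description, by Pearson's r among 12542 genes with a mean of at least 10 counts. The nearest to Chrng were Pf4, Pdzd7 and Atg101 (r between 0.9951 and 0.9962), the nearest to Chrna1 were Pigs, Rps10 and Gnb1 (0.9923 to 0.9972), and the nearest to Chrne were Shisa5, Phrf1 and Scly (0.9915 to 0.9949). These 6 points share library depth and group, and 153 genes reached an r of at least 0.95 with Chrng, 55 with Chrna1 and 39 with Chrne.

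The read counts of all 10 members were whole numbers in every library, and 4.18% to 4.44% of all values in a library were not. Chrnd and Chrng are neighbouring coding genes on the same strand, and Chrnd was lower and Chrng higher in EX. In the GENCODE annotation, the exons of Rapsn, Ache and Colq overlap another gene, by 4, 98 and 199 bases, which is 0.222%, 2.12% and 5.23% of their exon bases. The transcript length implied by the ratio of counts to FPKM was nearly the same in both groups, with differences between -0.02 and 0.007 on the log2 scale for the 9 members other than Chrng.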

How the data were processed

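Hind leg muscle RNA of 3 Con and 3 EX mice was sequenced by the authors on DNBseq (paired ends of 150 bases). The paper names HISAT and GRCm39 for alignment, while the submitters' processing notes name GRCm38.p6, cutadapt, featureCounts and MultiQC. Library strand and the counting settings are not given in the sources used here. The authors deposited, per gene and mouse, the estimated count with the FPKM and TPM values made from it, and 6 columns of group means that were not used here.

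Estimated counts were rounded to whole numbers and compared with edgeR 4.0.16 (TMM, glmQLFit, glmQLFTest) in R 4.3.3 for all 16716 genes with a count, with no filter on expression and Benjamini-Hochberg adjustment over them. The threshold was an adjusted p under 0.05. Standard errors were taken from the quasi-likelihood F value. Values within libraries were compared by exact permutation tests over mice, with a smallest p of 0.1. DESeq2 1.42.0 and limma 3.58.1 on log2(FPKM + pseudocount), which understates changes of low genes, were alternatives. The planned ratio of Chrng to Chrne needed 0.1 FPKM added, since Chrng was listed at 0. Shares of counts have exact Clopper-Pearson intervals.

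The members and gene lists were chosen with earlier results of these data known. Genes of the lists were named as up to 3 of the largest changes past the threshold in each direction, with these exceptions. The slow fibre, fat cell and endothelial genes named did not follow this rule and were picked with their values known. For macrophages and for fibroblasts and tendon, only sums are given. Other genes were named as stated. The 4 receptor genes and 3 axon genes of the lists with no row under their symbol or gene ID were not analysed here.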

Additional observations from a re-analysis of the deposited data

How the results depend on the processing

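Of 168 values of single members under alternative fits, 149 kept their direction and their side of the threshold. Musk and Chrng were past it in every fit that tested them, but both filters on expression, a mean of at least 1 FPKM and filterByExpr, removed Chrng. Chrna1 was lost in 12 of 17, including each of the 6 fits without 1 library, and Chrnd with DESeq2, which called 0 members lower after adjustment and 1 at an unadjusted p under 0.05. Ache passed with a robust prior (adjusted p = 0.048) and without EX replicate 1. The sign turned for Rapsn in limma on log2(FPKM + 0.1) and log2(FPKM + 1), at -0.02 each, and on log2(TPM + 0.1), at -0.05, and for Dok7 on log2(TPM + 0.1), at -0.02. The ratio of Chrng to Chrne differed by 1.64 to 2.72 and that of Ache to Colq by 0.18 to 0.25 on the log2 scale. Over all genes, 2013 were called in edgeR, 1087 with DESeq2, 1119 and 1110 with limma on log2(FPKM + 0.1) and log2(FPKM + 1), and between 1125 and 1757 without 1 library, the lowest being 1125, 1290 and 1148 without EX replicates 1, 2 and 3. The split into higher and lower genes was 1016 and 997 in edgeR, 355 and 764 with limma on log2(FPKM + 0.1), 315 and 1196 with limma on log2(TPM + 0.1) and, chosen after seeing the data, 798 and 1252 when scaled to totals without the 20 most abundant genes. Same-numbered Con and EX libraries did not deviate together (correlations -0.092, -0.025 and -0.056 over 12542 genes), and with the replicate number as a block 1856 genes were called and Chrna1 had an adjusted p of 0.059, and no other member's call changed. The cause of these differences was not tested.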
